A study of Mus musculus with 7 samples.

Results

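The genes described here encode the machinery that works directly beneath G protein-coupled receptors: the alpha, beta and gamma subunits of the heterotrimeric G proteins, the adenylyl cyclases, the regulators of G protein signaling (RGS) and the beta-arrestins. They were chosen by name as families, though with earlier results of these data known. All 56 were found among the 57010 gene identifiers of the count table. RNA was sequenced from mature white adipocytes freed by collagenase from the perigonadal fat of male mice, 20 weeks old, which had been fed normal chow without any treatment. Of the mice, 3 were FFA2 fl/fl, that is, floxed littermate controls, and 4 were Adipoq-F2-KO, which carried the same floxed FFA2 alleles together with a Cre transgene under the adiponectin promoter. That promoter is active in adipocytes, so FFA2 in other cells of the fat pad was left intact by design. The paper gives co-housing of the genotypes from birth, up to an age younger than that of the mice here. Each library was labelled as a separate sample, and the p-values below measure the spread between these libraries.

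Total counts per library lay between 30478997 and 39992605. The targeted gene, Ffar2, was counted 1404, 1346 and 1094 times in FFA2 fl/fl and 67, 38, 48 and 76 times in Adipoq-F2-KO, a log2 fold change of -4.36. Markers of adipocytes were abundant in every library, with summed levels of 64690 to 71750 normalized CPM (CPM, counts relative to the library total, after scaling for composition) in FFA2 fl/fl and 52910 to 66090 in Adipoq-F2-KO over 14 genes. Markers of other cells of the fat pad were present too, with summed levels of 1165 to 2660 normalized CPM for 12 endothelial genes, 483 to 750 for 11 pericyte and smooth muscle genes and 380 to 671 for 18 macrophage genes. Of the macrophage genes, 17 were tested. The RNA of the fraction thus included that of other cells, and Adipoq-F2-KO library 4 had the lowest adipocyte sum and the highest sums of all the other lists just named. In bulk RNA, fewer cells of a type and less RNA per cell cannot be told apart.

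A G protein is a switch made of an alpha subunit, which binds GTP, and a tightly paired beta-gamma dimer. A receptor that binds its ligand makes alpha exchange GDP for GTP, after which alpha and beta-gamma each act on their own targets. Gs activates adenylyl cyclase and raises cAMP, Gi/o lowers it, and Gq/11 activates phospholipase C beta. RGS proteins speed the hydrolysis of GTP and end the signal, and beta-arrestins bind phosphorylated receptors, uncouple them from the G protein and help to internalize them. In adipocytes, beta-adrenergic receptors drive lipolysis through Gs, cAMP and protein kinase A, whereas receptors coupled to Gi/o restrain it. FFA2, the receptor for short-chain fatty acids that was deleted here, is known to couple to Gi/o and to Gq/11.

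The carboxyl end of an alpha subunit is the part that touches the receptor, and its last coding bases show how the classes differ at that contact. The lines that follow give the last 30 coding bases before the stop codon, 5′ to 3′, of the alpha subunits that the results turn on, read from the GENCODE M21 transcripts of GRCm38. The capitals mark the fourth codon from the end. In Gnai1, Gnai2, Gnai3 and Gnao1 it is a cysteine codon, TGT or TGC, and this cysteine is the residue that pertussis toxin modifies to cut Gi/o off from its receptors. Gnaz, a Gi/o member that is not a substrate of the toxin, has ATC there.
Gnai1: aagaataacctaaaagacTGTggtctcttc
Gnai2: aagaacaacctgaaggacTGTggcctcttc
Gnai3: aaaaacaacttaaaggaaTGTgggctttat
Gnao1: gccaacaatctccggggcTGCggcttgtac
Gnaz: cagaacaatctcaagtacATCggcctttgc
Gnas: cgcatgcatctccgccaaTACgagctgctc
Gnaq: cagctgaacctgaaggagTACaatctggtc
Gna11: cagctgaacctgaaggagTACaacctggtg
Gna13: catgacaacctgaagcagCTCatgctgcag

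The end of a gamma subunit decides which lipid anchors the beta-gamma dimer to the membrane. A final leucine codon leads to a geranylgeranyl group, and a final serine codon to the shorter farnesyl group. The last 12 coding bases of 4 gamma genes are given below with the final codon in capitals, since Gng11 is the gene that passed the test. Of the 9 gamma genes studied, Gng11 was the only one that ended in TCA, a serine codon, and the other 8 ended in a leucine codon. The Gng11 bases shown lie at chr6:4008146-4008157 on the plus strand of GRCm38, in exon 2.
Gng11: tgtgtcattTCA
Gng5: tgctcctttTTG
Gng10: tgtgctctaCTT
Gng12: tgcatcatcTTA

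Levels were compared between genes as TPM, in which counts are divided by the summed exon length of the gene and scaled to the same total in every library. In FFA2 fl/fl adipocytes, 39 of the 56 genes had a mean of at least 1 TPM. The most abundant were the Gi/o alpha genes Gnai1 and Gnai2, the beta gene Gnb1, the RGS gene Rgs5, the beta gene Gnb2 and the adenylyl cyclase gene Adcy5. Gnb3 and Rgs8 had 0 counts throughout, where the smallest of the 7 libraries could have missed up to 0.197 CPM (3 fragments, which give 6 counts when both mates are counted, and counting error alone). Gna14, Adcy2, Adcy8, Rgs17 and Rgs20 were detected but too low to be tested, so 49 genes entered the comparison of genotypes.

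**Figure D1:**
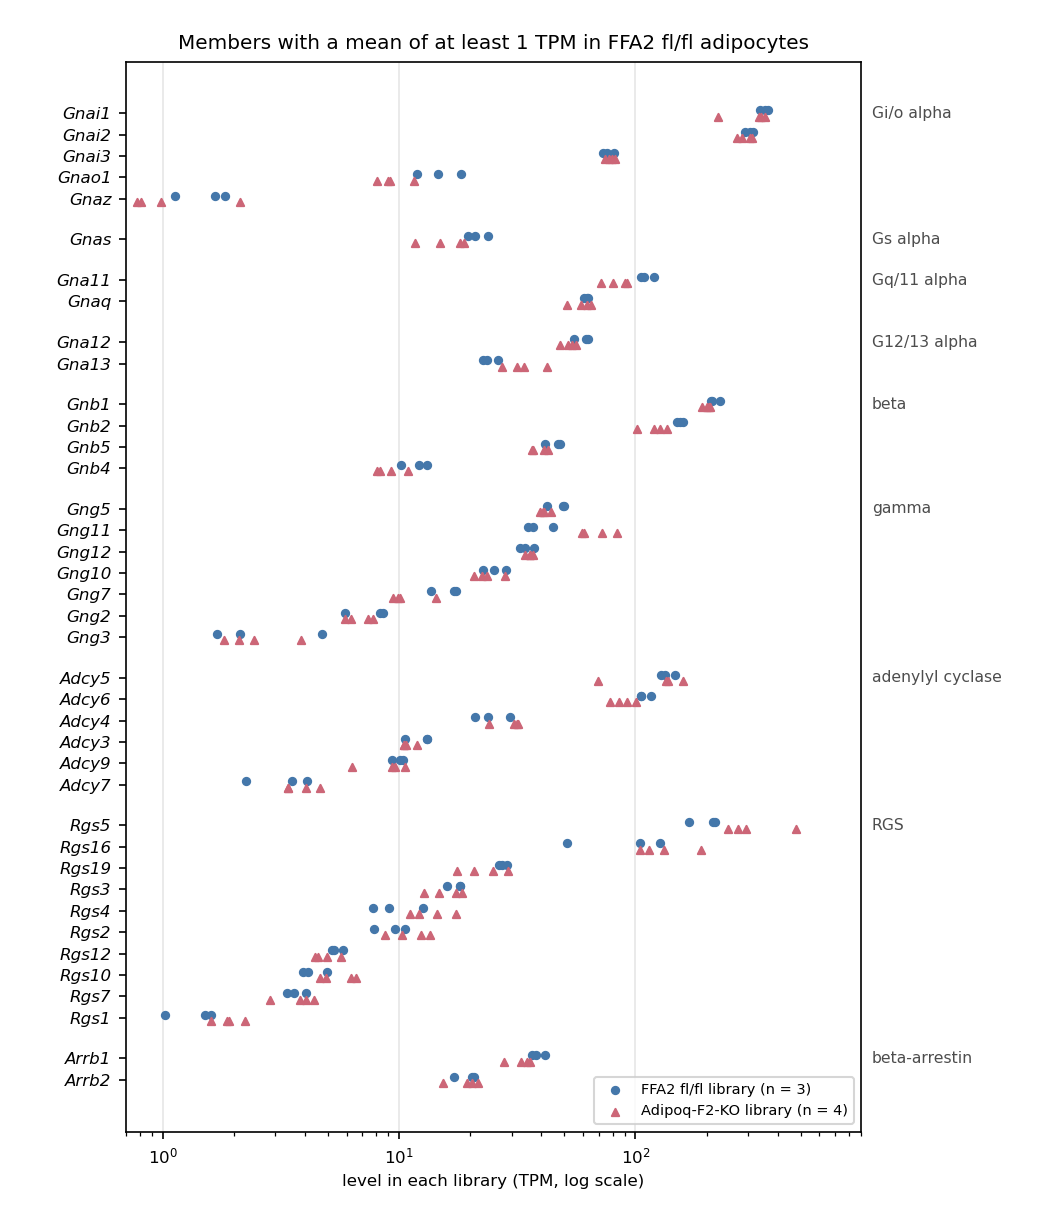
Level of each gene with a mean of at least 1 TPM in FFA2 fl/fl adipocytes, in each of the 7 libraries (TPM, log axis), with FFA2 fl/fl libraries as circles and Adipoq-F2-KO libraries as triangles. Levels ran from Gnai1 at 351 TPM to Rgs1 at 1.38 TPM.

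The genotypes were then compared with edgeR's quasi-likelihood test, and p-values were adjusted over all 17039 tested genes. A single member of the families, Gng11, passed an adjusted p of 0.05. That share was 1.02% over the whole table, with 0.798% in the upward and 0.217% in the downward direction. At an unadjusted p under 0.05 there were 15 of the 49 tested members, 9 higher and 6 lower in Adipoq-F2-KO, where 17.9% of all genes lay under that value, 10.5% higher and 7.37% lower. No overlap between genotypes was seen for 12 members, 8 higher and 4 lower, against 17.6% of all genes, 8.86% higher and 8.72% lower. The members split into 25 with a positive and 24 with a negative log2 fold change, with a median of 0.01, and the median over all tested genes was 0.00. A count over the tested members leans toward genes that are high in Adipoq-F2-KO, because some entered the test mainly through that genotype. Of 8 that did not reach the count filter in all 3 FFA2 fl/fl libraries, 6 had positive values, and Gng4 and Adcy1 had negative ones. Among the 39 with a mean of at least 1 TPM over all libraries, 18 were higher and 21 lower, with a median of -0.02, and those without overlap numbered 5 higher and 4 lower. The other 3 of the 8 higher members without overlap, Gng8, Rgs9 and Rgs11, reached the count filter in none of the FFA2 fl/fl libraries. Other settings called more of the whole table. DESeq2 called 6.21% of the 14342 genes to which it gave an adjusted p, 4.67% higher and 1.53% lower. Among them were 3 members, Gng11, Gna13 and Gnao1. A looser filter of at least 1 count called 4.92% of its 28515 genes, 3.76% higher and 1.16% lower, and 6 members, adding Rgs4, Rgs5 and Rgs16. Both limma voom, with 1.22% of all genes and 0.974% higher, and edgeR with RLE scaling, with 1.0% and 0.81% higher, called Gng11 alone.

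**Figure D2:**
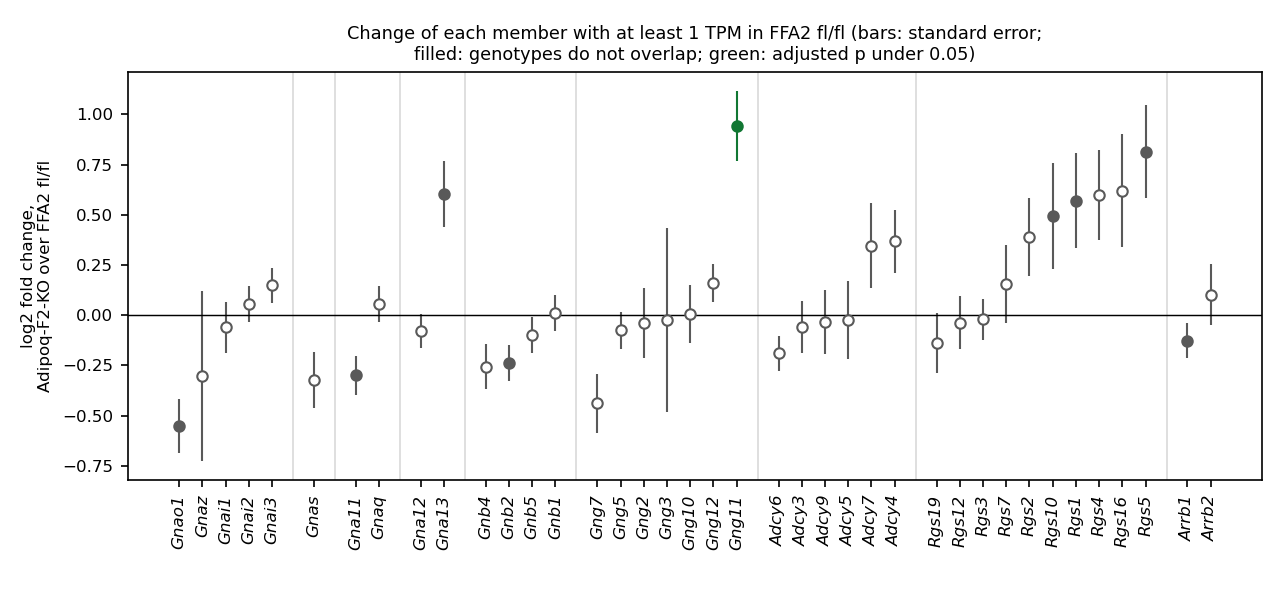
Log2 fold change, Adipoq-F2-KO over FFA2 fl/fl, of the 39 genes with at least 1 TPM in FFA2 fl/fl, grouped by role (bars are standard errors, filled points mark genes whose libraries did not overlap, and green marks the gene that passed the test). Gng11 stands highest at 0.94 and Gnao1 lowest at -0.55.

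The Gi/o alpha genes were the most abundant class of alpha subunits. They took 72.8% ± 1.48 (SD, n = 3) of the summed alpha TPM in FFA2 fl/fl and 73.7% ± 1.60 (SD, n = 4) in Adipoq-F2-KO. Gq/11 took 16.9% ± 0.94 against 15.4% ± 0.67, G12/13 took 8.19% ± 0.33 against 9.24% ± 1.24, and Gs took 2.13% ± 0.25 against 1.72% ± 0.22. The Gs share depends strongly on the gene length used, since the exons of Gnas add up to 11387 bases over its alternative first exons whereas its longest principal transcript has 3903. With the length of 1 transcript per gene, an alternative chosen after seeing the data, the Gs share in FFA2 fl/fl was 4.76% ± 0.53 and the Gi/o share 73.9% ± 1.48. The counts of Gnas are themselves uncertain, since 8.68% of its exon bases overlap the antisense gene Nespas and 12.9% the antisense gene Gm20721, and how reads in such overlaps were assigned is not given. The part of this in the Gnas level and the Gs share was not tested.

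**Figure D3:**
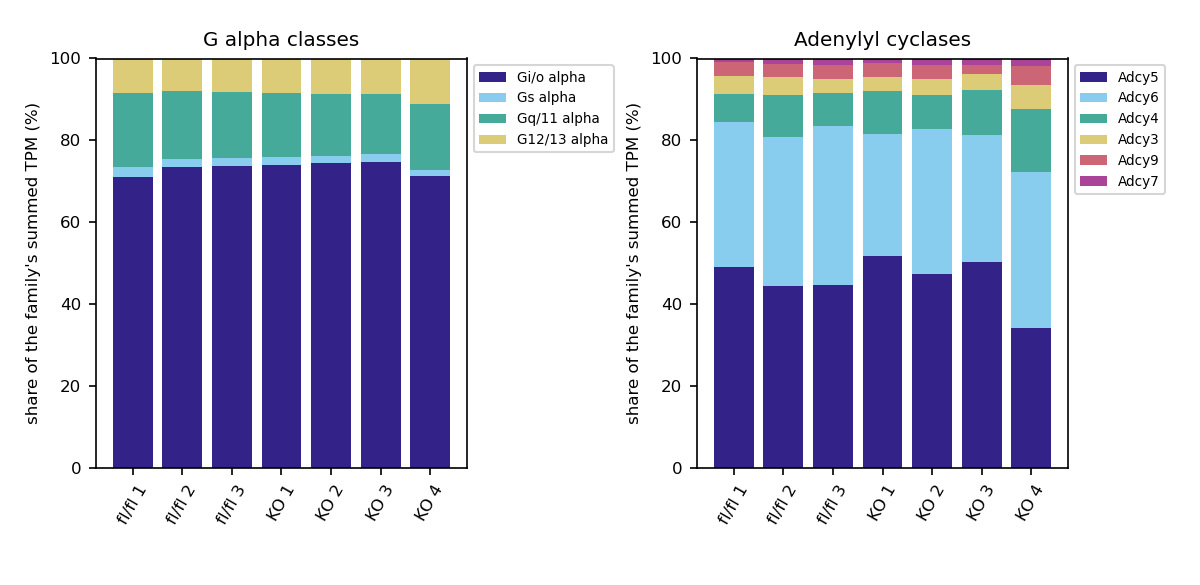
Share of the summed TPM of all alpha subunits taken by each class (left) and of all adenylyl cyclases taken by each gene with a mean share above 0.5% in FFA2 fl/fl (right), in percent, for each library. Gi/o took between 71.1% and 74.8% of alpha TPM in every library, and Adcy5 took 34.1% of adenylyl cyclase TPM in Adipoq-F2-KO library 4 and at least 44.3% in the others.

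Of the Gi/o genes, Gnai1 had 336, 355 and 364 TPM in FFA2 fl/fl against 334, 340, 353 and 225 TPM in Adipoq-F2-KO. Only Adipoq-F2-KO library 4 stood apart, and it was low. Its log2 fold change of -0.06 had a 95% interval of -0.34 to 0.22 and turned to 0.05 when that library was left out. Gnai2 had 289, 315 and 307 TPM against 310, 282, 307 and 268, and the genotypes overlapped. Its log2 fold change was 0.06 (interval -0.15 to 0.26). Gnai3, the third member of this trio of inhibitors of adenylyl cyclase, was less abundant than Gnai1 and Gnai2. It had 76.7 ± 3.92 TPM in FFA2 fl/fl against 78.4 ± 3.08 in Adipoq-F2-KO, and its log2 fold change was 0.15 (interval -0.04 to 0.34). Which of Gnai1 and Gnai2 was the more abundant depended on the length used, since with 1 transcript per gene Gnai1 had 253 TPM in FFA2 fl/fl and Gnai2 373.

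Gnao1, which encodes the Go alpha subunit best known from neurons, was the Gi/o gene that differed most. It had 63.7, 44.1 and 51.3 normalized CPM in FFA2 fl/fl and 34.0, 42.4, 35.0 and 33.3 in Adipoq-F2-KO. All Adipoq-F2-KO libraries lay below all FFA2 fl/fl libraries, with Adipoq-F2-KO library 2 just under FFA2 fl/fl library 2. With -0.55 on the log2 scale (standard error 0.14, edgeR adjusted p = 0.0764), Gnao1 missed the threshold, whereas DESeq2 gave it an adjusted p of 0.00939. The gene lies on chromosome 8, and its level was 15.0 ± 3.23 TPM in FFA2 fl/fl against 9.43 ± 1.46 in Adipoq-F2-KO, or 34.4 against 22.3 with the length of 1 transcript. Markers of neurons and Schwann cells were low, with summed levels of 41.7 to 44.4 normalized CPM against 31.6 to 43.5, and their part in the Gnao1 values was not tested. Gnaz was scarce at 1.55 ± 0.37 TPM in FFA2 fl/fl, and its log2 fold change was -0.30 (interval -1.23 to 0.62). With 1 library left out it lay between -0.71 and -0.16.

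Of the Gs genes, Gnas encodes the alpha subunit that stimulates adenylyl cyclase in most tissues. It had 85.1, 79.6 and 70.8 normalized CPM in FFA2 fl/fl and 69.3, 56.5, 75.9 and 49.6 in Adipoq-F2-KO. Adipoq-F2-KO library 3 lay within the control range and library 4 was the lowest. On the log2 scale Gnas differed by -0.32 (standard error 0.14), with an unadjusted p of 0.0421 and an adjusted p of 0.262. Gnal, the Gs-like subunit of olfactory and striatal neurons, stood below 1 TPM in both genotypes.

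In the Gq/11 class, Gna11 was more abundant than Gnaq, at 111 ± 7.29 against 61.9 ± 1.33 TPM in FFA2 fl/fl. Gna11 had 154, 149 and 137 normalized CPM in FFA2 fl/fl and 125, 109, 134 and 109 in Adipoq-F2-KO. The genotypes did not overlap, and the gap between FFA2 fl/fl library 3 and Adipoq-F2-KO library 3 was small. Its difference of -0.30 on the log2 scale did not pass the test (standard error 0.10, adjusted p = 0.154). Gnaq, the closely related subunit, differed by 0.06 (interval -0.14 to 0.26), and its libraries overlapped. Gna15, the Gq/11 subunit typical of blood cells, had 0.593 ± 0.19 TPM in FFA2 fl/fl, and Gna14 was not tested.

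The G12/13 class comprised Gna12 and Gna13. Gna13 had 47.3, 56.3 and 46.1 normalized CPM in FFA2 fl/fl and 58.9, 67.4, 76.4 and 101 in Adipoq-F2-KO. Every Adipoq-F2-KO library was higher than every control, and library 4 was the highest. The difference of 0.60 on the log2 scale (standard error 0.16, adjusted p = 0.101) became 0.44 when library 4 was left out. DESeq2 called Gna13 with an adjusted p of 0.00932. The gene lies on chromosome 11, and 151 bases of its exons overlap those of the antisense gene Gm11696, which had 618 counts over all libraries. Gna12 was at 60.1 ± 4.37 TPM in FFA2 fl/fl and differed by -0.08 (interval -0.26 to 0.11).

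Among the beta subunits, which form the platform on which alpha rests, Gnb1 led with 216 ± 10.5 TPM in FFA2 fl/fl, followed by Gnb2 with 154 ± 4.84, Gnb5 with 45.5 ± 3.42 and Gnb4 with 11.8 ± 1.52. Gnb1 was at 200 ± 7.01 TPM in Adipoq-F2-KO. In normalized CPM it had 296 ± 12.9 in FFA2 fl/fl against 298 ± 20.4, so the sign differed between the scalings. Its log2 fold change, from the normalized counts, was 0.01 (interval -0.19 to 0.20). Gnb2 had 165, 171 and 172 normalized CPM in FFA2 fl/fl and 156, 136, 152 and 129 in Adipoq-F2-KO. All Adipoq-F2-KO libraries lay below the controls, yet the log2 fold change of -0.24 did not pass the test (adjusted p = 0.209). Gnb5, the atypical beta subunit that pairs with Rgs6, Rgs7, Rgs9 and Rgs11, differed by -0.10 (interval -0.29 to 0.10).

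The gamma subunits held the gene that rose. Gng11, whose product is anchored by a farnesyl group, had 378, 550 and 366 counts in FFA2 fl/fl and 891, 614, 696 and 846 in Adipoq-F2-KO. In normalized CPM these were 10.1, 13.9 and 10.7 against 22.4, 18.7, 19.3 and 28.7. All Adipoq-F2-KO libraries were higher than all controls, with Adipoq-F2-KO library 4 the highest and FFA2 fl/fl library 2 the highest of the controls. The mean was 1.92 times that of FFA2 fl/fl, or 0.94 higher on the log2 scale (standard error 0.18, interval 0.55 to 1.33, edgeR adjusted p = 0.0396), which ranked 93 among all tested genes by p. The gene, ENSMUSG00000032766, spans positions 4003904 to 4008445 of chromosome 6 in the table's own coordinates, and no other annotated gene shares its exons there.

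The call on Gng11 was close to the threshold. With 1 library left out at a time, the log2 fold change lay between 0.80 and 1.09, and the call was kept only without Adipoq-F2-KO library 4. Adjusted p-values without the others lay between 0.0562, without Adipoq-F2-KO library 1, and 0.207, without FFA2 fl/fl library 1. DESeq2 called the gene with an adjusted p of 0.000161 and limma voom with 0.0360.

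With that rise, Gng11 went from 22.5% ± 3.29 of the summed gamma TPM in FFA2 fl/fl to 36.1% ± 4.54 in Adipoq-F2-KO. In FFA2 fl/fl the most abundant gamma gene was Gng5, at 47.2 ± 4.23 TPM, ahead of Gng11 at 38.9 ± 5.34 and Gng12 at 34.6 ± 2.27, and these last genes differed by less than the SD of Gng11. In Adipoq-F2-KO, Gng11 came first at 69.1 ± 11.4 TPM. Gng5, Gng10 and Gng12 differed by -0.07, 0.01 and 0.16 on the log2 scale and did not pass the test. Gng7, the gamma subunit of Golf in the striatum, had 20.2, 17.4 and 20.9 normalized CPM against 12.6, 18.1, 13.4 and 13.3. Only Adipoq-F2-KO library 2 reached the control range, and Gng7 differed by -0.44 on the log2 scale (standard error 0.15, adjusted p = 0.159). Gng8 had 2, 2 and 0 counts in controls and 12, 12, 4 and 18 in Adipoq-F2-KO, levels at or near the counting floor of 6 counts, so no fold is given. The counts of Gng3 are uncertain, since 24.2% of its exon bases overlap Bscl2 on the other strand.

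**Figure D4:**
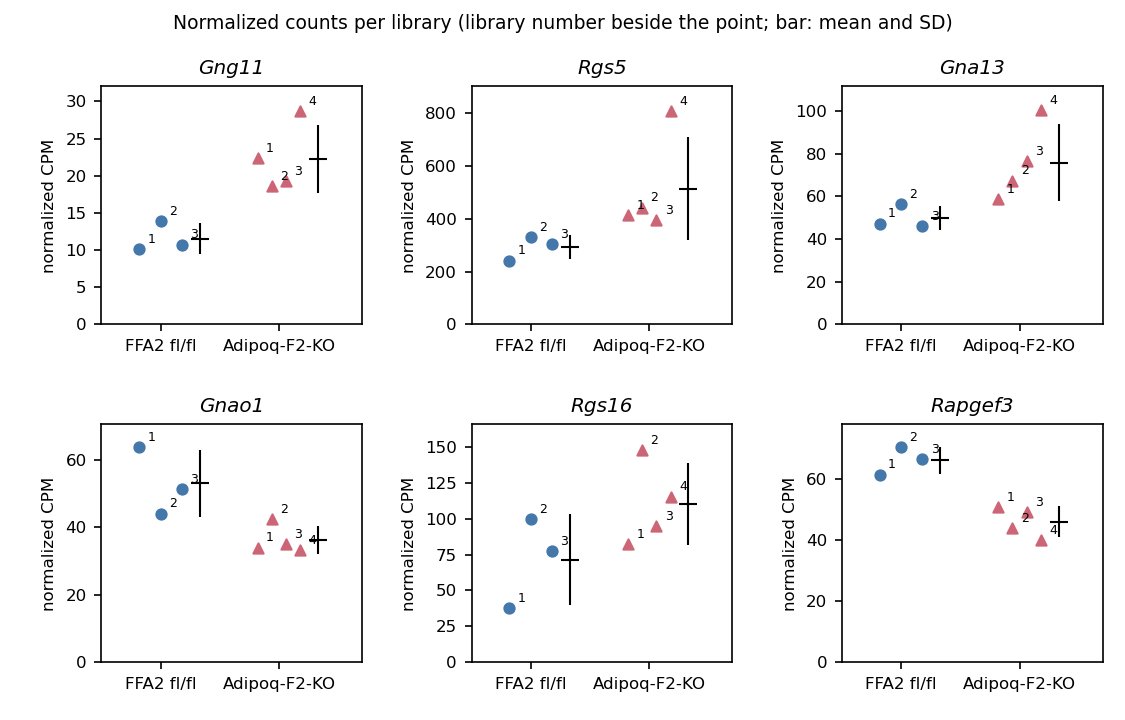
Normalized CPM in each library for 6 genes, with the library number beside each point and a bar for the mean and SD of each genotype (3 FFA2 fl/fl and 4 Adipoq-F2-KO libraries). The genotypes did not overlap for Gng11, Rgs5, Gna13, Gnao1 and Rapgef3, and they overlapped for Rgs16.

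Adenylyl cyclases turn ATP into cAMP, and Gs and Gi/o act on them in opposite directions. Adcy5 and Adcy6, the pair of isoforms most sensitive to inhibition by Gi, supplied most of the family in FFA2 fl/fl, with 46.0% ± 2.70 and 36.9% ± 1.91 of the summed TPM. Adcy5 had 12464, 12290 and 10383 counts in FFA2 fl/fl and 15358, 10614, 12630 and 5480 in Adipoq-F2-KO mice. In normalized CPM, Adipoq-F2-KO libraries 1 and 3 lay above the controls, library 2 within their range and library 4 far below, at 186 against a lowest value of 304 elsewhere. Its log2 fold change was -0.02 (interval -0.45 to 0.40) and turned to 0.16 without library 4. Adcy6 had 225, 241 and 251 normalized CPM against 211, 228, 203 and 197, an overlap by Adipoq-F2-KO library 2 alone. Its log2 fold change was -0.19 (interval -0.38 to 0.00, adjusted p = 0.291).

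The other adenylyl cyclases were less abundant. Adcy4, an isoform that beta-gamma can stimulate, had 24.7 ± 4.29 TPM in FFA2 fl/fl and differed by 0.37 on the log2 scale (standard error 0.16, unadjusted p = 0.0395, adjusted p = 0.256). Adcy3 and Adcy9 stood at 12.3 ± 1.45 and 9.95 ± 0.53 TPM with log2 fold changes of -0.06 and -0.03, whose signs turned with single libraries left out. Adcy3 shares 22.1% of its exon bases with Cenpo on the other strand. Adcy7 was at 3.28 ± 0.93 TPM, Adcy1 stood at 0.0536 ± 0.047, and Adcy2 and Adcy8 were not tested. No adenylyl cyclase was called by edgeR, and 1 of the 7 tested had an unadjusted p under 0.05, a share near the 17.9% of all genes.

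The RGS genes had the most positive median of all roles, although none of them passed the test. Of 18 genes, 15 were tested, of which 12 had a positive log2 fold change and 5 had all their Adipoq-F2-KO libraries above all controls, with a median of 0.60. Over all genes, 8.86% were higher without overlap. The low genes weigh on this count, since all 5 tested RGS genes under 1 TPM (Rgs6, Rgs9, Rgs11, Rgs14 and Rgs18) had positive values, as did 64.1% of all tested genes at that level. Of the 10 RGS genes with at least 1 TPM, 7 had positive values, 3 were higher without overlap, and the median was 0.44. At that level 47.7% of all tested genes had positive values, and 1310 of 14192 were higher without overlap. The count of called RGS genes was 0 by edgeR and 0 by DESeq2. DESeq2 gave no adjusted p to Rgs9, Rgs11, Rgs14 and Rgs18, which edgeR tested. The looser filter called Rgs4, Rgs5 and Rgs16, all higher, beside 3.76% of the genes that passed that filter. At an unadjusted p under 0.05 there were 5 RGS genes, all higher, beside 10.5% of all genes. Of these, Rgs11 reached the count filter in none of the FFA2 fl/fl libraries, so it was tested only through Adipoq-F2-KO.

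Rgs5, a regulator of Gi and Gq best known as a marker of pericytes, was the most abundant RGS gene, with 200 ± 26.6 TPM in FFA2 fl/fl and 53.7% ± 2.39 of the summed RGS TPM. It had 242, 332 and 305 normalized CPM in FFA2 fl/fl and 415, 443, 394 and 807 in Adipoq-F2-KO. All Adipoq-F2-KO libraries were higher than the controls, and library 4 was far above the other 3. Rgs5 thus differed by 0.81 on the log2 scale (standard error 0.23, adjusted p = 0.111), or by 0.51 without that library (adjusted p = 0.0659). The looser filter called it, whereas DESeq2 did not (adjusted p = 0.142).

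Rgs16, a regulator of Gi and Gq that is induced in many cells by stimulation, was next at 94.2 ± 38.9 TPM. It had 37.6, 99.5 and 77.4 normalized CPM in FFA2 fl/fl and 82.4, 148, 94.6 and 115 in Adipoq-F2-KO. The genotypes overlapped, FFA2 fl/fl library 1 was low, and the difference of 0.62 on the log2 scale (standard error 0.28, adjusted p = 0.277) went to 0.31 without it and to 0.94 without FFA2 fl/fl library 2. Rgs4, a regulator of the same kind, differed by 0.60 (standard error 0.22, adjusted p = 0.197). Rgs1 and Rgs10, both typical of leukocytes, were higher without overlap, with log2 fold changes of 0.57 (standard error 0.24, adjusted p = 0.239) and 0.49 (standard error 0.26, adjusted p = 0.349). Rgs19 stood at 27.4 ± 1.11 TPM and Rgs3 at 17.4 ± 1.18 (34.7 with the length of 1 transcript), and their log2 fold changes were -0.14 and -0.02, of which the value of Rgs3 turned sign with single libraries left out. Rgs9 and Rgs11, which pair with Gnb5, did not overlap between genotypes in normalized CPM, at 9, 4 and 1 counts against 16, 12, 24 and 10 for Rgs9 and 2, 6 and 4 counts against 26, 18, 26 and 6 for Rgs11. These are a few fragments per library. Rgs18, a regulator of platelets and other blood cells, had 0, 6 and 10 counts against 18, 4, 32 and 20, and the genotypes overlapped.

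Of the beta-arrestins, Arrb1 was at 38.6 ± 2.41 TPM in FFA2 fl/fl and Arrb2 at 19.4 ± 2.06. The level of Arrb1 depends on the length used and was 83.7 TPM with 1 transcript per gene, where Arrb2 had 21.5. Arrb1 had 145, 137 and 135 normalized CPM against 135, 129, 129 and 116, lower in Adipoq-F2-KO by a narrow margin with no overlap. This came to -0.13 on the log2 scale (interval -0.31 to 0.06, adjusted p = 0.470). Arrb2 differed by 0.10 (interval -0.23 to 0.44), and by 0.001 to 0.22 with 1 library left out.

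Markers of other cells were set beside these values, because Gng11 and Rgs5 are also genes of blood vessels. All 12 endothelial markers had positive log2 fold changes, with a median of 0.49 and none called by edgeR (9 at an unadjusted p under 0.05, as were 17.9% of all genes), and their summed level was 1165, 1574 and 1338 normalized CPM in FFA2 fl/fl and 1860, 1646, 1559 and 2660 in Adipoq-F2-KO. Of the 11 pericyte and smooth muscle markers, 7 had positive values, with a median of 0.23 and a summed level of 495, 532 and 503 against 591, 547, 483 and 750. Pecam1 and Cdh5, which define endothelial cells, were well detected, and no marker of the endothelial, pericyte or macrophage lists was at 0 in all libraries. Adipoq-F2-KO library 4 was the highest for both sums, for Gng11 and for Rgs5. When it was left out Gng11 was at 0.80 on the log2 scale and still called. Rgs5 was then at 0.51 and not called (edgeR adjusted p = 0.0659). The part of endothelial and pericyte RNA in the Gng11 and Rgs5 values was not tested. Of the 17 tested macrophage markers, 16 had positive values, with a median of 0.61 and 2 called by edgeR (Cd68 and Lyz2, beside 1.02% of all genes). At an unadjusted p under 0.05 there were 11, all higher, beside 10.5% of all genes. DESeq2, which called 6.21% of the genes it gave an adjusted p, also called Adgre1, Csf1r, Mrc1, Cd14 and Itgam, all higher. The summed level of all 18 macrophage markers was 380 to 471 against 572 to 671. Of the 7 fits with 1 library left out, 1 kept the call of Cd68 and 3 that of Lyz2. Rgs1, Rgs10 and Rgs18 had positive values too, none of which passed the test. The part of macrophage or other leukocyte RNA in them was not tested. Of 7 tested B and plasma cell markers, 6 had negative values, with a median of -0.30. The sum of all 8 was 560 to 696 against 331 to 689. Medians were 0.04 for 5 tested T and NK cell markers, 0.25 for 2 neutrophil, 0.08 for 4 mast cell and 0.02 for 16 tissue dissociation genes. None in these lists was called by edgeR, beside 1.02% of all genes. Of 6 platelet markers 3 were tested, all positive with a median of 0.65, and the summed level of all 6 was 5.65 to 7.91 against 7.58 to 13.02. The erythroid sum was 97.6 to 223 against 209 to 372, and the part of blood cells in the low counts of Rgs18 was not tested. Of the 12 fibroblast progenitor markers, 11 had positive values, with a median of 0.45 and 1 called by edgeR (Icam1, beside 1.02% of all genes). At an unadjusted p under 0.05 there were 6, all higher, beside 10.5% of all genes. Their summed level was 1048, 1331 and 1375 against 1562, 1796, 1619 and 1983, again highest in Adipoq-F2-KO library 4. Single libraries stood apart for tissues next to the fat pad, with a mesothelial sum of 57.4 in FFA2 fl/fl library 1 and 10.8 to 20.1 in the others, and a male germ cell and epididymis sum of 157 in Adipoq-F2-KO library 2 and at most 18.1 in the others. The part of these cells in the members' values was not tested. Of the 14 adipocyte markers, 13 had negative values, with a median of -0.26 and none called by edgeR (7 at an unadjusted p under 0.05, 6 lower and 1 higher, beside the same 17.9%). The exception was Pparg, the master regulator of adipocyte differentiation, which was higher without overlap, by 0.27 (adjusted p = 0.178). DESeq2 called the adipocyte markers Lipe and Slc2a4, both lower. The part that a smaller adipocyte share of the RNA had in the lower values of Gnao1, Gna11, Gnb2, Gnas and Rapgef3, a gene of the cAMP pathway described next, was not tested.

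**Figure D5:**
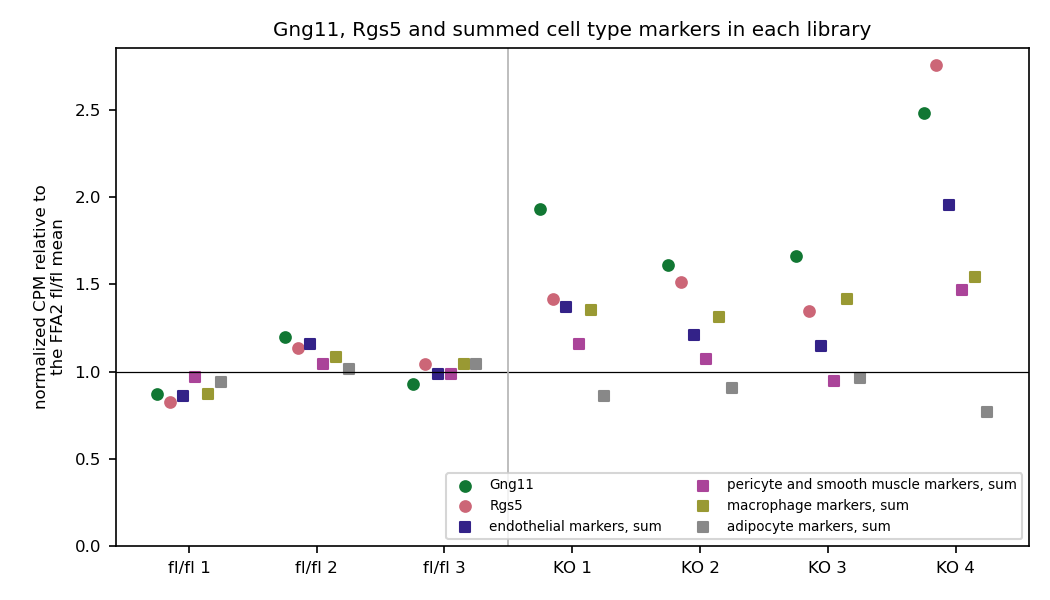
Normalized CPM of Gng11 and Rgs5 (circles) and summed normalized CPM of cell type markers (squares), each divided by its FFA2 fl/fl mean, for each library. Gng11 was above 1 in all 4 Adipoq-F2-KO libraries, and Rgs5, Gng11 and the endothelial and pericyte sums were all highest in Adipoq-F2-KO library 4, where the adipocyte sum was lowest.

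Genes that act next to these families were examined as 7 lists with 47 genes, of which 41 were tested and 1 was called, beside 1.02% of all genes. Rapgef3, which encodes Epac1, the exchange factor for Rap that cAMP activates without protein kinase A, fell. It had 61.3, 70.3 and 66.3 normalized CPM in FFA2 fl/fl and 50.8, 44.0, 49.1 and 39.9 in Adipoq-F2-KO, with no overlap and the lowest value in Adipoq-F2-KO library 4. The fall was -0.52 on the log2 scale (standard error 0.11, edgeR adjusted p = 0.0475). With 1 library left out at a time it lay between -0.57 and -0.46, and the call was kept in 2 of 7 cases, without Adipoq-F2-KO library 1 and without library 4. The adjusted p otherwise lay between 0.0700 and 0.201. Of the 8 genes in the list of Epac and CREB, 7 had positive values, with a median of 0.25, and Rapgef3 was the exception.

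In that list, Crem, a transcription factor that cAMP signaling induces, had 10.9, 14.4 and 13.8 normalized CPM in FFA2 fl/fl and 17.1, 20.8, 22.9 and 34.5 in Adipoq-F2-KO. The genotypes did not overlap, library 4 was again the highest, and the log2 fold change of 0.87 (standard error 0.22) missed the threshold of edgeR with an adjusted p of 0.0776. DESeq2 (adjusted p = 0.00393), the looser filter and the fit without Adipoq-F2-KO library 1 called it. Atf1 and Crtc2, which work with CREB on cAMP response elements, were higher without overlap, by 0.35 (adjusted p = 0.157) and 0.42 (adjusted p = 0.185). The value of Crtc2 was 0.25 without Adipoq-F2-KO library 4, and the looser filter called Crtc2 (adjusted p = 0.0156). Of the 9 genes of protein kinase A, the main effector of cAMP in lipolysis, 6 had negative values, with a median of -0.05 and none called. Prkaca, its main catalytic subunit, and Prkar2a, a regulatory subunit, were lower without overlap, by -0.25 (adjusted p = 0.167) and -0.24 (adjusted p = 0.181). Prkar2b, the regulatory subunit that predominates in white fat, was the most abundant gene of the list at 542 TPM in FFA2 fl/fl, and its log2 fold change of -0.23 (adjusted p = 0.473) went to -0.09 without Adipoq-F2-KO library 4.

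Of the kinases that phosphorylate active receptors, 5 of 6 were tested and none was called. Grk5 was higher without overlap, by 0.38 (adjusted p = 0.189), and Grk6 lower without overlap, by -0.31 (adjusted p = 0.190). Of the 7 genes in the list of G protein chaperones and other modulators, 6 were tested, 4 with positive and 2 with negative values and a median of 0.23, and none was called. Ric8a, a chaperone of Gi, Gq and G12/13 alpha subunits, was lower without overlap, by -0.27 (adjusted p = 0.177). None of the 4 phospholipase C beta genes was called, and their median was -0.16. Plcb3, an effector of Gq and of beta-gamma, was lower without overlap, by -0.19 (adjusted p = 0.286). A list of 10 further members of these families, mostly of the retina, taste and testis, had 6 tested genes, of which 5 had positive values with a median of 0.82 and none called by edgeR (2 at an unadjusted p under 0.05, beside 17.9% of all genes). Most of these genes were low, and 64.1% of all tested genes under 1 TPM had positive values. In it, Gnat1, the alpha subunit of rod transducin, had 21, 29 and 36 counts in controls and 46, 73, 65 and 119 in Adipoq-F2-KO, a low level with no overlap between genotypes (log2 difference 1.55, standard error 0.48, edgeR adjusted p = 0.135, DESeq2 adjusted p = 0.0424). Among all 41 tested genes of the 7 lists the median was 0.07, and 11 did not overlap between genotypes, 5 higher and 6 lower, beside 17.6% of the whole table.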

How the data were processed

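The deposited values are whole-number counts for every gene, not normalized, beside its position and total exon length. For the authors' stranded poly-A libraries of read pairs, the counts came from featureCounts after trimming (Trimmomatic) and alignment (STAR), and the strand and overlap options and the tool versions are not given in the sources used here. The submitters' processing notes name GRCm38, but only a minority of gene positions match GENCODE M21 on that build, so gene positions are given in the table's own coordinates. Between 85.5% and 88.8% of counts from 1 to 49 in a library were even numbers, as when the mates of a pair are counted separately.

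After filterByExpr and TMM scaling, the quasi-likelihood test of edgeR 4.0.16 (R 4.3.3) was run two-sided with genotype as sole term, with Benjamini-Hochberg adjustment over 17039 genes and a threshold of 0.05. Intervals are 95% intervals from the standard error. TPM were computed from the counts and the deposited length. DESeq2 1.42.0, limma 3.58.1 (voom), RLE scaling, a filter of at least 1 count, a replicate block and leaving out each library were alternatives. On simulated counts with 17039 genes, edgeR with the filter of at least 1 count recovered 55.3% of genes changed by a log2 fold change of 1. It recovered 13.0% of those changed by 0.5, with 7.19% false calls, and DESeq2 62.0% and 27.0% with 24.5%. Genes were drawn independently there, without shifts shared by many genes of a library, so these shares may not hold for the real counts. Means are given with SDs, n = 3 for FFA2 fl/fl and n = 4 for Adipoq-F2-KO.

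Members, gene lists and tests were chosen with earlier results of these data known. Genes were named if called, if the genotypes did not overlap, if among the most abundant of their role, if Gi/o or Gq/11 alpha, or if among the 3 highest or lowest log2 fold changes. Rgs4, Gng7, Adcy4 and the uncalled pathway genes were named after their values were seen, as were Gng3, Gnb4 and the remaining adenylyl cyclases and RGS genes. Sequences are from GENCODE M21 transcripts. No protein sequences were used here, and the result of 1 list of pathway genes is not reported here.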

Additional observations from a re-analysis of the deposited data

Results flagged for a closer look

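In the 4 Adipoq-F2-KO libraries, 1 library stood far from the other 3 for 5 of the 49 tested members, by the gap between that library and its nearest neighbour as a share of the whole range, by Dixon's criterion. Chance alone sets off such a gap in about 1 in 20 groups. Rgs5 was at 807 normalized CPM in library 4, where the other 3 lay between 394 and 443. Gng7 was at 18.1 normalized CPM in library 2, against 12.6 to 13.4 in the others, and Gng5 was lowest in the same library, at 37.4 against 40.2 to 40.8. Gnaz was at 2.55 normalized CPM in library 2, against 0.996 to 1.20, and Gna15 at 1.22 in library 3, against 0.339 to 0.425. Both of these last genes had few counts.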

How the results depend on the processing

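Of all genes, 173 were called, 1403 with a filter of at least 1 count, 890 with DESeq2, and 1 to 178 with 1 library left out (1 without FFA2 fl/fl library 1). Members called numbered 1, but 6 with a filter of at least 1 count (Gna13, Gnao1, Gng11, Rgs16, Rgs4 and Rgs5), 3 with DESeq2 (Gna13, Gnao1 and Gng11) and 0 to 1 with 1 library left out. Pathway genes called numbered 1, but 3 with a filter of at least 1 count (Crem, Crtc2 and Rapgef3), 3 with DESeq2 (Crem, Gnat1 and Rapgef3) and 0 to 2 with 1 library left out. RLE scaling and limma voom called Gng11 alone. Members not overlapping numbered 12, and 11 to 22 with 1 library left out, where the share of all genes rose too, from 17.6% to between 21.2% and 28.2%. Members at 1 TPM or more numbered 39, and 40 at 0.5 TPM or 37 at 2 TPM. Ffar2 stayed between -4.64 and -4.22 in all settings.

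Replicate numbers did not pair the libraries (correlations of 0.03, -0.02 and -0.02). A replicate block called 224 genes and, of the members, Rgs5 alone (adjusted p = 0.0483), and of the pathway genes Crem alone (0.0447), with Gng11 at 0.0502 and Rapgef3 at 0.0830. Some log2 fold changes turned sign: Gnai1 to 0.046, Gnb1 to -0.024 and Adcy5 to 0.16 with the replicate block. With 1 library left out, Gnai1 ranged from -0.13 to 0.046, Gna15 from -0.077 to 0.81, Gnb1 from -0.025 to 0.059, Gng4 from -1.13 to 0.10, Gng10 from -0.084 to 0.090, Adcy3 from -0.15 to 0.024, Adcy5 from -0.14 to 0.16, Adcy9 from -0.11 to 0.10 and Rgs3 from -0.072 to 0.043 (0.040 with the replicate block). The cause was not tested. With 3 and 4 libraries, changes of 0.5 on the log2 scale were mostly missed on simulated counts, and genes of a few counts give no usable fold.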
